A study of Mus musculus with 18 samples.

Results

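The 10 circadian clock genes Arntl, Clock, Npas2, Per2, Per3, Cry1, Cry2, Nr1d1, Nr1d2 and Dbp were examined in mouse retina. They were chosen by symbol from 35006 genes, and all 10 were among the 16183 genes with enough reads to be tested. The study asked how N-acetyl-L-cysteine ethyl ester (NACET), a cell-permeable cysteine donor, acts on the retina of diabetic mice. Retinal RNA of male mice was sequenced in 18 libraries of 4 groups. The WT group (3 libraries) was C57BL/6J mice given water, and the WT + NACET group (6 libraries) was the same strain given NACET. The Akita group (4 libraries) was mice that carry the dominant Ins2 Akita mutation and become diabetic through loss of insulin from the pancreas, given water, and the Akita + NACET group (5 libraries) was such mice given NACET. The mice drank NACET in their water (0.33 mg/mL), which came to 50 mg per kg of body weight a day, from 4 to 24 weeks of age. The retina was collected at 24 weeks in all groups. The time of day of collection is not given in the sources used here, so a difference in level between libraries cannot be told apart from a difference in the hour of sampling.

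The circadian clock is a feedback loop of transcription that runs with a period close to a day in most cells. BMAL1, the product of Arntl, pairs with CLOCK or its paralog NPAS2, binds E-boxes and switches on the Per and Cry genes, whose protein products return to the nucleus and block that pair. The nuclear receptors REV-ERBα and REV-ERBβ, products of Nr1d1 and Nr1d2, repress Arntl through ROR elements, and DBP, a transcription factor under direct E-box control, drives genes with D-boxes. The retina holds a clock of its own, known for gating dopamine and melatonin signalling, the light response and the daily renewal of photoreceptor outer segments.

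The promoters carry letters of these 3 elements in some members. Stretches are printed below for Per3 and Cry1, members called in at least 1 comparison. Those of Arntl, the other side of the loop, and of Per1, a period gene outside the 10, are also printed. Tef and Bhlhe41, genes outside the 10 that were also called, held E-boxes that are not printed. Ciart also held E-boxes and Nfil3 a ROR element, not printed, although edgeR called neither gene in any comparison. Hlf, which was called, held none of the 3 elements in its window. Windows from 250 bases before to 50 bases after the start site were taken from RefSeq on build GRCm38.p6, and 9 of the 10 members had at least 1 window, all but Per2. The motifs searched on both strands were the E-box CACGTG, the D-box TTANGTAA and the ROR element TAGGTCA, and no matches printed here overlap one another. Of 32851 promoter windows in the table, 7.15% held the E-box, 2.32% the D-box and 2.61% the ROR element. Each sequence is written 5′ to 3′ on the strand of the gene, with the motif in capitals. Per3 held 2 D-boxes, which begin 205 and 158 bases before its start site.
Per3, chr4:151044801-151044885, minus strand: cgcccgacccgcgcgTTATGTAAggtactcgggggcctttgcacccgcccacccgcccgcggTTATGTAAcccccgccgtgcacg
Cry1, E-box 60 bases before the start, chr10:85185098-85185125, minus strand: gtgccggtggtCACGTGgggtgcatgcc
Arntl, ROR element 31 bases into the transcript, chr7:113207530-113207558, plus strand: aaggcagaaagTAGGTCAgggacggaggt
Per1, E-box 166 bases before the start, chr11:69098772-69098799, plus strand: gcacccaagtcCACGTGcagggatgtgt
No letters of these 3 motifs were in the windows of Clock, Npas2, Cry2, Nr1d1, Nr1d2 and Dbp. That says only that these letters are not within these short windows.

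Between 11495596 and 17814480 reads per library fell in genes other than ribosomal RNA genes. The share of reads outside annotated exons differed between groups. It was taken out of the reads outside exons plus all reads in genes, ribosomal RNA included. The share was 16.5% ± 1.26 (SD, n = 3) in WT, 12.9% ± 2.77 (n = 6) in WT + NACET, 11.6% ± 1.85 (n = 4) in Akita and 16.6% ± 2.13 (n = 5) in Akita + NACET. The 4 libraries with the lowest shares were WT + NACET replicates 3 and 6 and Akita replicates 3 and 4. Markers of the retinal cell types were detected in all groups. The summed level of 5 rod markers was 87600 to 120000 CPM (counts per 1000000 counts in genes, after scaling between libraries) in WT, 110000 to 146000 in WT + NACET, 127000 to 193000 in Akita and 81600 to 111000 in Akita + NACET. The 4 lens markers together ranged from 0.304 to 11200 CPM in WT + NACET and up to 924 in Akita, and the 5 markers of the pigment epithelium from 39.7 in Akita to 1090 in WT + NACET. In bulk tissue, fewer cells of a type and less RNA per cell cannot be told apart. The labels do not say that each library came from a separate mouse, so p-values measure the spread between these libraries, which may be technical.

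Levels of the 10 genes spanned more than 2 orders of magnitude. On a scale that divides CPM by the kilobases of exon (RPKM), the mean over the 18 libraries was 45.4 for Nr1d2, 44.7 for Arntl and 43.7 for Nr1d1, and these 3 genes could not be ordered. Nr1d2 was above Arntl in 9 of 18 libraries and Arntl above Nr1d1 in 10 of 18. Cry1 followed at 34.6 RPKM ± 7.38 (SD, n = 18) and was below Nr1d1 in 17 of 18 libraries. Dbp stood at 25.4 ± 3.6 RPKM and Cry2 at 19.7 ± 2.73 RPKM, with Dbp above Cry2 in 18 of 18 libraries. Clock and Per3, at 6.59 ± 0.798 and 6.57 ± 2.18 RPKM, did not differ beyond their spread, since Clock was the higher in 9 of 18 libraries. Per2 lay at 2.1 ± 0.666 RPKM. Npas2 was the lowest of the 10 at 0.24 ± 0.0702 RPKM, with 8 to 29 reads per library, so its values carry a large counting error.

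**Figure D1:**
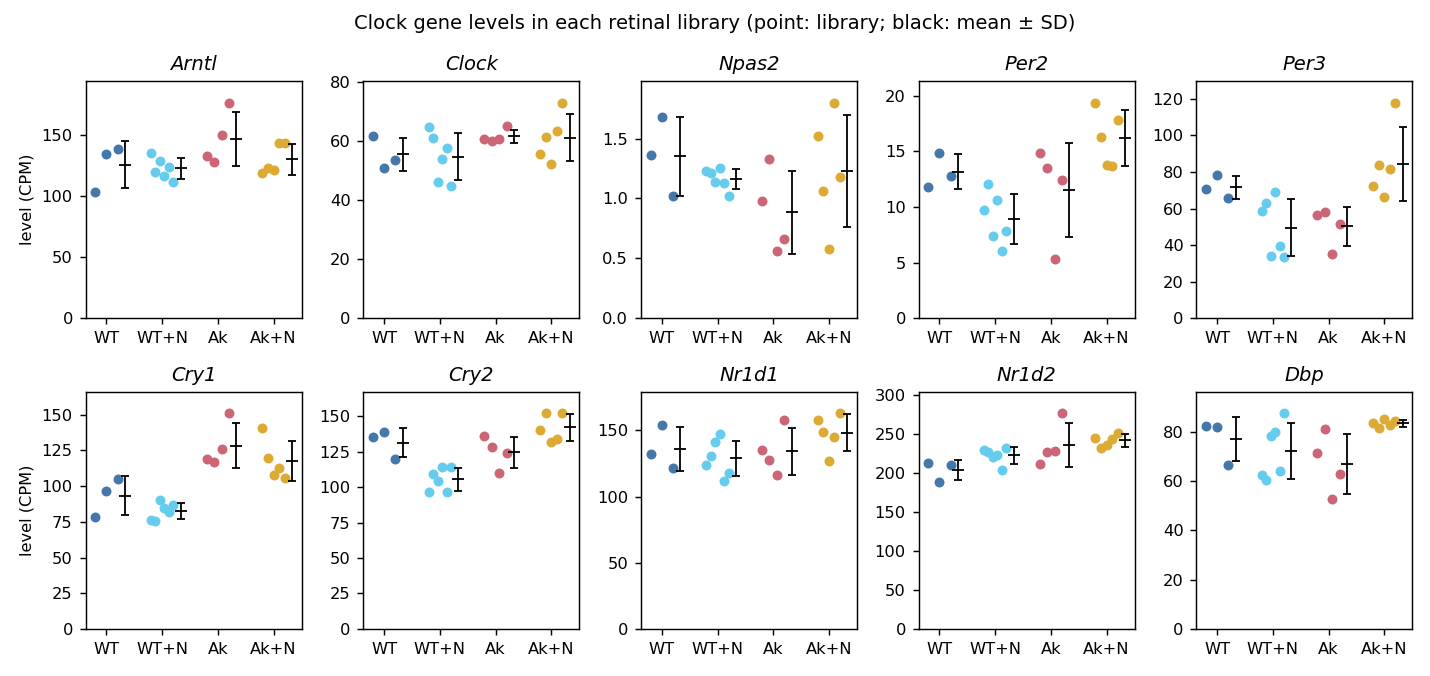
Level of each of the 10 clock genes in counts scaled to a common library size (CPM, vertical axis starting at 0) in every library, by group (Ak, Akita; N, NACET); a point is a library and the black bar is the mean with its SD. All 9 Akita libraries, treated or not, lie above all 9 WT libraries for Cry1 and for no other member, while Per2, Per3 and Npas2 spread most between libraries.

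Variation between libraries was uneven among the members. The highest library was 3.64 times the lowest for Per2, 3.52 times for Per3 and 3.19 times for Npas2. For Cry1 this ratio was 2, and for the other 6 genes it ran from 1.46 for Nr1d1 to 1.7 for Arntl. The period genes thus varied more than the activators Arntl and Clock, as the plot of levels by library shows.

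Differences between groups were tested with the quasi-likelihood test of edgeR on all 16183 genes, and a gene was called at a Benjamini-Hochberg adjusted p of at most 0.05 over all of them. Of the 10 members, 1 was called in Akita vs WT, where 7.64% of all genes were called and 3.96% called higher. In Akita + NACET vs Akita, 1 member was called, higher, against 9.65% of all genes called and 4.51% called higher. In Akita + NACET vs WT + NACET, 4 members were called, all higher, against 13.3% of all genes called and 6.01% called higher. No member was called by edgeR in WT + NACET vs WT, where 1.48% of all genes were called; 3 had an unadjusted p under 0.05, all with lower values, and DESeq2 called 1. No member was called by edgeR or DESeq2 in Akita + NACET vs WT, where 0.00618% of all genes (1 gene) were called and 2 members had an unadjusted p under 0.05. The interaction of genotype with NACET, which asks whether the NACET difference was the same in Akita as in WT, was called for 3 members, all above 0, against 20.3% of all genes called and 10.1% called above 0.

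Read against these backgrounds, single called members in Akita vs WT and in Akita + NACET vs Akita were near the share of all genes. The 3 members called for the interaction were also near the share of all genes called for it, 20.3%. The median log2 fold change over the 10 members was -0.05 in Akita vs WT, beside -0.01 over all genes tested. It was -0.13 in WT + NACET vs WT (all genes -0.01), where 1 of the 10 values was above 0. It was 0.17 in Akita + NACET vs Akita (all genes 0) and 0.21 in Akita + NACET vs WT + NACET (all genes 0), where 10 of 10 values were above 0. Of the 10 values, 4 were above 0 in Akita vs WT and 7 in Akita + NACET vs Akita. In Akita + NACET vs WT 9 were above 0 (median 0.13, all genes -0.01), and for the interaction 8 (median 0.32, all genes 0). The results below follow the roles of the members in the loop.

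**Figure D2:**
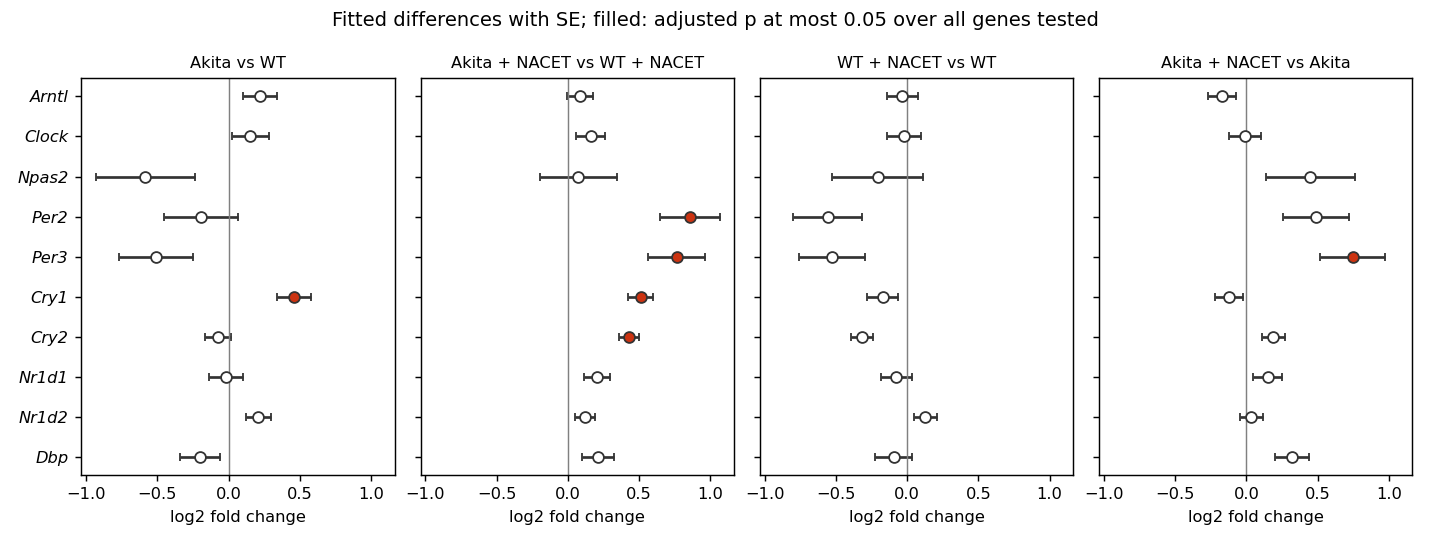
Fitted log2 fold change (horizontal axis, with its SE) of the 10 clock genes in 4 comparisons; filled points have an edgeR adjusted p of at most 0.05 over all genes tested. Cry1 is filled in both comparisons of Akita with WT, at 0.46 and 0.51, and Per2, Per3 and Cry2 are filled between the 2 NACET-treated groups.

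None of the 3 activators was called in any comparison by edgeR or DESeq2 or had an unadjusted edgeR p under 0.05, although Npas2, with its few reads, varied 3.19-fold between libraries. Arntl (chr7:120350979-120457636 on mm9, plus strand) encodes BMAL1, the obligate partner of the activating pair. Its level was 104, 135 and 139 CPM in the 3 WT libraries, 133, 128, 150 and 177 CPM in Akita and 119, 123, 122, 144 and 144 CPM in Akita + NACET. In WT + NACET the lowest, median and highest values were 112, 122 and 136 CPM. Akita replicate 4 was the highest of all libraries for Arntl, and the ranges of the groups overlapped. The log2 fold change was 0.22 ± 0.12 (SE) in Akita vs WT (edgeR adjusted p = 0.235, 95% interval -0.02 to 0.46) and -0.17 ± 0.1 in Akita + NACET vs Akita (adjusted p = 0.285).

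Clock (chr5:76639992-76733817, minus strand), the partner of BMAL1, was at 61.9, 51 and 53.7 CPM in WT and at 60.9, 60, 60.6 and 65 CPM in Akita. In Akita + NACET it was at 55.7, 61.6, 52.2, 63.4 and 73.1 CPM, and in WT + NACET between 44.9 and 64.7 CPM with a median of 55.8 CPM. The groups overlapped throughout, and the log2 fold change of Akita vs WT was 0.15 ± 0.13 (edgeR adjusted p = 0.463). Npas2 (chr1:39250576-39420079, plus strand), which can take the place of CLOCK, was at 1.36, 1.68 and 1.02 CPM in WT and at 0.983, 1.33, 0.565 and 0.66 CPM in Akita. Its log2 difference of -0.58 ± 0.35 in Akita vs WT had an edgeR adjusted p of 0.291 and an interval from -1.28 to 0.11, so this interval of an uncalled difference runs from a large decrease to a small increase.

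The period genes encode PER proteins, which bind CRY and carry it into the nucleus. Per2 and Per3 were the most variable members, and both were higher in Akita + NACET than in WT + NACET. Per2 (chr1:93312561-93355907, minus strand) was at 19.4, 16.3, 13.8, 13.7 and 17.8 CPM in Akita + NACET. In WT + NACET its lowest, median and highest values were 6.06, 8.77 and 12.1 CPM. The 2 groups did not overlap, and 8.01% of all genes tested showed no overlap in this comparison. Per2 rose 1.81-fold (log2 0.86 ± 0.21, edgeR adjusted p = 0.0134).

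Without NACET, Per2 was at 11.8, 14.9 and 12.8 CPM in WT and at 14.9, 13.5, 5.34 and 12.4 CPM in Akita. Akita replicate 3 was the lowest of all 18 libraries for Per2, and the other 3 Akita libraries lay within or beside the WT range. The log2 fold change of Akita vs WT was -0.19 ± 0.26 (edgeR adjusted p = 0.674). That of WT + NACET vs WT was -0.56 ± 0.24 (adjusted p = 0.212) and that of Akita + NACET vs Akita was 0.49 ± 0.23 (adjusted p = 0.167), neither of them called. The difference between these NACET contrasts was called, with an interaction of 1.05 ± 0.33 on the log2 scale (edgeR adjusted p = 0.0342). That call was lost on leaving out any 1 of 6 libraries, namely WT 1 or 2, WT + NACET 3 or Akita + NACET 1, 2 or 5, with adjusted p from 0.0506 to 0.0919, and without a filter on low counts (adjusted p = 0.0525).

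Per3 (chr4:150377761-150418774, minus strand), whose protein is less essential to the rhythm than PER2, had the D-box pair shown above. It was at 70.6, 78.3 and 65.9 CPM in WT, at 56.5, 58.3, 35 and 51.6 CPM in Akita and at 72.2, 83.7, 66.4, 81.6 and 118 CPM in Akita + NACET. In WT + NACET its lowest, median and highest values were 33.5, 48.9 and 69.3 CPM. All 4 Akita libraries lay below all WT libraries and below all Akita + NACET libraries, while WT + NACET held 3 libraries from 33.5 to 39.5 CPM and 3 from 58.4 to 69.3 CPM. In Akita vs WT 2 members, Per3 and Cry1, had no overlap, beside 23.2% of all genes tested. In Akita + NACET vs Akita 2 members, Per3 and Dbp, had none, beside 14.1%.

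Per3 rose 1.68-fold in Akita + NACET vs Akita (log2 0.75 ± 0.23, edgeR adjusted p = 0.0489) and 1.7-fold in Akita + NACET vs WT + NACET (log2 0.76 ± 0.2, adjusted p = 0.0223). Its log2 value was -0.51 ± 0.26 in Akita vs WT (edgeR adjusted p = 0.211) and -0.53 ± 0.23 in WT + NACET vs WT (adjusted p = 0.228), neither called. The interaction was the largest of the 10 members, at 1.27 ± 0.33 (edgeR adjusted p = 0.0145). The call in Akita + NACET vs Akita stood at the threshold. It was lost on leaving out any 1 of 12 libraries (WT 1, 2 or 3, WT + NACET 1 or 2, any of the 4 Akita libraries, or Akita + NACET 2, 4 or 5), with adjusted p from 0.0501 to 0.128. The call in Akita + NACET vs WT + NACET was lost without WT + NACET 3, WT + NACET 5 or Akita + NACET 5, with adjusted p from 0.0506 to 0.0799.

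The level of Per3 followed the share of reads outside exons from library to library. With the group means removed, Pearson's r over the 18 libraries was 0.90 and Spearman's rho 0.93 (permutation within groups, two-sided p = 1e-05 for r, the smallest that the 100000 permutations can give, adjusted p = 0.0001 over the 10 relations examined). Without the 2 libraries farthest from the median share, Akita + NACET 5 and WT + NACET 6, r was 0.85 (permutation p = 0.00084). Of 14472 genes with a mean of at least 1 CPM, 16 (0.111%, Per3 included) had an r this high, and the median r over these genes was -0.00. With the share added as a covariate to the edgeR fit, the log2 difference of Per3 was -0.00067 in Akita + NACET vs Akita, 0.24 in Akita + NACET vs WT + NACET (adjusted p = 0.337) and 0.04 for the interaction (adjusted p = 0.977).

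Other members moved less closely with that share. The r was 0.72 for Clock (permutation p = 0.00608, adjusted p = 0.0203, rho 0.69), 0.64 for Per2 (permutation p = 0.00419, adjusted p = 0.0203, rho 0.72) and -0.55 for Cry1 (permutation p = 0.0168, adjusted p = 0.0421, rho -0.57). Without the 2 farthest libraries these became 0.53, 0.70 and -0.49, with permutation p-values adjusted over the 10 relations of 0.148, 0.0202 and 0.0947, so those of Clock and Cry1 no longer passed. Leaving out 1 library, adjusted p was 0.0693 for Clock without Akita + NACET 5, 0.0507 for Per2 without Akita 1, and from 0.0539 to 0.102 for Cry1 without any 1 of 11 libraries (WT 1 or 3, WT + NACET 1, 2, 3 or 6, Akita 1, 2 or 4, Akita + NACET 2 or 5). Dbp and Nr1d2 had r of -0.06 and -0.09. With the share as a covariate, Per2 in Akita + NACET vs WT + NACET was 0.48 (edgeR adjusted p = 0.279) and its interaction 0.17 (adjusted p = 0.926). That covariate lowered the calls over all genes to 0 in Akita vs WT and in Akita + NACET vs Akita, 195 between the NACET-treated groups and 13 for the interaction. These relations were looked for after the data had been seen.

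**Figure D3:**
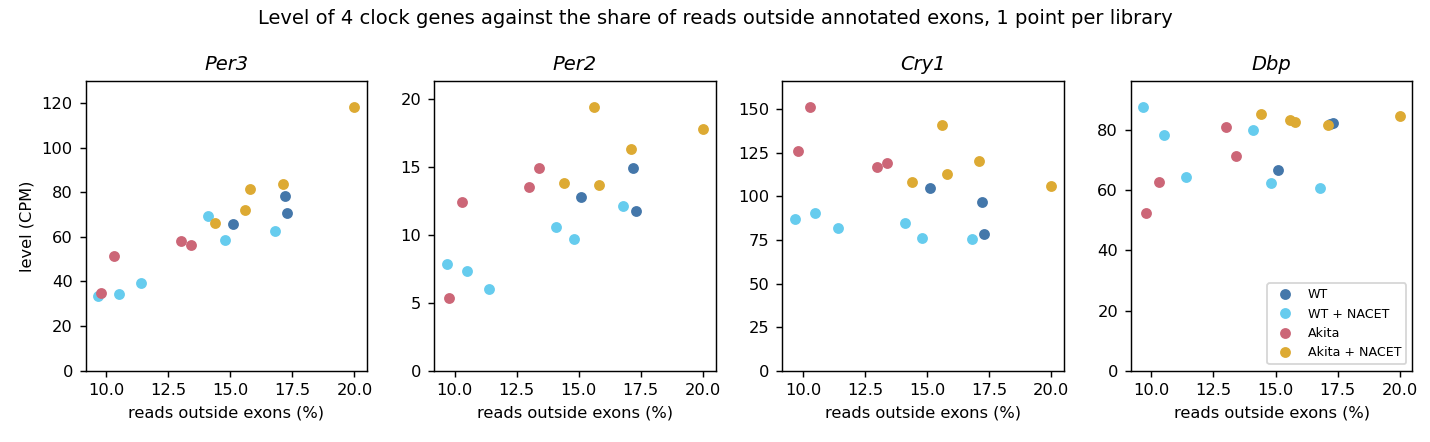
Level (CPM, vertical axis from 0) of Per3, Per2, Cry1 and Dbp against the share of reads outside annotated exons (%, horizontal axis) in each of 18 libraries, coloured by group. Per3 climbs from 33.5 CPM at the lowest share, 9.68%, to 118 CPM at the highest, 20%, whatever the group. For Cry1 all 9 Akita libraries, from 106 CPM, lie above all 9 WT libraries, up to 105 CPM. Without NACET the shares of the genotypes do not overlap, at 15.1 to 17.3% in WT and 9.79 to 13.4% in Akita.

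The cryptochromes, CRY1 and CRY2, are the main repressors of the CLOCK and BMAL1 pair. Cry1 (chr10:84594447-84647799, minus strand) was at 78.4, 96.5 and 105 CPM in WT and at 119, 117, 126 and 151 CPM in Akita. In WT + NACET its lowest, median and highest values were 75.7, 83.4 and 90.2 CPM, and in Akita + NACET it was at 141, 120, 108, 113 and 106 CPM. All 9 Akita libraries, from 106 to 151 CPM, were above all 9 WT libraries, from 75.7 to 105 CPM. Of all genes tested, 27 (0.167%) separated the 9 libraries of each genotype without overlap, in either direction.

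Cry1 rose 1.37-fold in Akita vs WT (log2 0.46 ± 0.12, edgeR adjusted p = 0.0263) and 1.42-fold in Akita + NACET vs WT + NACET (log2 0.51 ± 0.09, adjusted p = 0.00202). The interaction was 0.05 ± 0.15 (edgeR adjusted p = 0.824, 95% interval -0.24 to 0.35), so a difference in the genotype effect with NACET was not detected, within an interval that reaches 0.35. Between NACET and water, its log2 value was -0.17 ± 0.11 in WT (adjusted p = 0.371) and -0.12 ± 0.1 in Akita (adjusted p = 0.447). The call between the NACET-treated groups held in all 27 alternatives, with adjusted p up to 0.00954. The call between the untreated groups was lost without WT 1, WT 2 or Akita 4 (adjusted p = 0.158, 0.0869 and 0.0793), where edgeR called 0, 0 and 234 of all genes, and with the share outside exons as covariate (log2 0.27, adjusted p = 0.403).

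The summed level of the rod markers is given beside these results. It was higher in Akita than in WT without overlap, but in the NACET-treated groups it was 81600 to 111000 CPM in Akita and 110000 to 146000 CPM in WT. The part of rod content in the Cry1 differences was not tested.

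Cry2 (chr2:92243803-92274200, minus strand) was at 140, 152, 132, 134 and 152 CPM in Akita + NACET and between 96.2 and 114 CPM, with a median of 106 CPM, in WT + NACET. These groups did not overlap. Cry2 rose 1.35-fold (log2 0.43 ± 0.07, edgeR adjusted p = 0.00124), the smallest adjusted p of the 10 members, and the call held in all 27 alternatives with adjusted p up to 0.0429. With the share outside exons as a covariate the difference was 0.35. The 3 members with no overlap between the NACET-treated groups were Per2, Cry1 and Cry2.

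In the untreated groups Cry2 was at 135, 139 and 120 CPM in WT and at 136, 128, 110 and 124 CPM in Akita, which overlapped (log2 -0.08 ± 0.09, edgeR adjusted p = 0.627). All 6 WT + NACET libraries were below all 3 WT libraries, which held for 1 member and for 11.5% of all genes tested in either direction. The log2 value of WT + NACET vs WT was -0.32 ± 0.08 with an unadjusted edgeR p of 0.00111 and an adjusted p of 0.0573, just short of a call. DESeq2 with all groups called it (adjusted p = 0.0181), and so did edgeR without Akita 3, Akita 4 or Akita + NACET 5 (adjusted p = 0.0452, 0.0459 and 0.0424). The interaction for Cry2 was 0.51 ± 0.12 (edgeR adjusted p = 0.00759), with 0.32 and an adjusted p of 0.575 once the share outside exons was a covariate. Its exons share 295 bases (4.67%) with D930015M05Rik on the opposite strand, and counting did not use strand. That gene was at 0.0829 to 0.884 CPM.

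The nuclear receptors of the stabilising loop were abundant and steady, and neither edgeR nor DESeq2 called them in any comparison, although 3 of their differences had an unadjusted edgeR p under 0.05 (Nr1d2 in Akita vs WT and Akita + NACET vs WT, Nr1d1 between the NACET-treated groups). Nr1d1 (chr11:98629246-98636647, minus strand) encodes REV-ERBα, a haem-binding repressor. It was at 132, 154 and 122 CPM in WT, 135, 128, 116 and 158 CPM in Akita and 158, 149, 127, 145 and 163 CPM in Akita + NACET, and between 112 and 147 CPM, with a median of 127 CPM, in WT + NACET. The groups overlapped in all comparisons, and the log2 fold change of Akita vs WT was -0.02 ± 0.12 (edgeR adjusted p = 0.93, 95% interval -0.25 to 0.21). Its exons overlap Thra on the opposite strand by 263 bases, 8.42% of its exonic length, and Thra, a thyroid hormone receptor gene, was itself called higher in Akita + NACET vs WT + NACET (log2 0.32 ± 0.1, adjusted p = 0.0453).

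Nr1d2 (chr14:19036568-19071641, minus strand) encodes REV-ERBβ. It was at 212, 188 and 210 CPM in WT, 211, 226, 228 and 276 CPM in Akita and 245, 231, 236, 243 and 251 CPM in Akita + NACET, and between 203 and 232 CPM, with a median of 224 CPM, in WT + NACET. All 5 Akita + NACET libraries lay above all 3 WT libraries for Nr1d2 and for Cry1, as for 4.17% of all genes tested in either direction. The log2 fold change of this comparison was 0.24 ± 0.09 for Nr1d2 and 0.34 ± 0.11 for Cry1, with an edgeR adjusted p of 1 for both. In Akita vs WT Nr1d2 was 0.21 ± 0.09 (edgeR adjusted p = 0.141).

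Dbp (chr7:52960458-52965525, plus strand) is the output gene whose level swings most over the day in many tissues. It was at 82.2, 81.9 and 66.5 CPM in WT and at 71.4, 81, 52.5 and 62.7 CPM in Akita. In WT + NACET its lowest, median and highest values were 60.5, 71.2 and 87.4 CPM. In Akita + NACET the 5 libraries were at 83.3, 81.4, 85.2, 82.7 and 84.4 CPM, the narrowest spread of any member in any group, with a coefficient of variation of 1.77%.

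All 5 Akita + NACET libraries lay above the 4 Akita libraries, by a small margin over Akita replicate 2. The log2 fold change was 0.32 ± 0.12 (edgeR adjusted p = 0.0877), not called, and it passed without Akita 2 (0.42, adjusted p = 0.0394). The log2 value of Akita vs WT was -0.2 ± 0.14 (edgeR adjusted p = 0.357, 95% interval -0.47 to 0.07). The exons of Dbp overlap Sphk2 on the opposite strand by 491 bases, 16.7% of its exonic length. Sphk2, a sphingosine kinase gene, was between 8.32 and 14.1 CPM, well below Dbp.

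Within groups, the members' levels were compared library by library. With group means removed, Dbp rose and fell with Cry2 (r = 0.67, rho = 0.62) and against Arntl (r = -0.50, rho = -0.57) and Clock (r = -0.46, rho = -0.44). In permutation tests within groups (two-sided), p was 0.012 for Cry2, 0.0722 for Arntl and 0.0605 for Clock, and adjusted over the 9 relations of Dbp these were 0.108, 0.217 and 0.217, so none passed. Without the 2 libraries farthest from the median of Dbp, Akita 3 and WT + NACET 2, r was 0.69 for Cry2, -0.62 for Arntl and -0.52 for Clock. The smaller set is part of the larger, so the same sign in both is not a separate observation. The size of the relations with the 2 activators could not be separated from none in these 18 libraries.

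As a description, the highest r between any other 2 members was 0.73, for Per2 and Per3, followed by 0.66 for Clock and Per3, which share the tie to reads outside exons. Per2 and Cry2 had r = 0.64, Nr1d1 had 0.59 with Per2, 0.58 with Cry2 and 0.52 with Per3, and Clock and Cry1 had r = -0.47. Cry1 and Cry2 had r = -0.10, although both are cryptochromes. The genes most like Dbp among 14471 others, by r over the 18 libraries, were Sept4 (0.87), AW047730 (0.85), Zfp956 (0.84), Dusp26 (0.84) and Klhl22 (0.83). Those most opposed were Rbbp5 (-0.80), A530072M11Rik (-0.80), Gckr (-0.79), Kpna3 (-0.78) and Polrmt (-0.77). No member was in either group of 5.

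**Figure D4:**
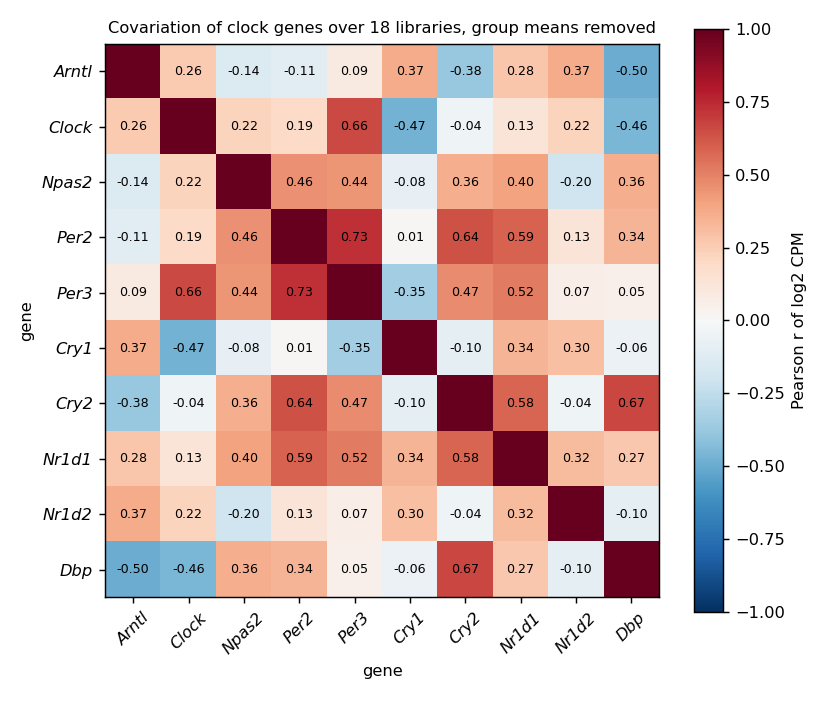
Pearson r between the log2 CPM of each pair of clock genes over 18 libraries after subtraction of group means (colour and printed value, from -1 to 1); the libraries share depth and the share of reads outside exons. Per2, Per3, Cry2 and Nr1d1 form a patch of values from 0.47 to 0.73, while Dbp is negative with Arntl (-0.50) and Clock (-0.46).

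The rest of the clock pathway was read from a list of 23 other genes, all tested. In Akita vs WT 3 were higher and 0 lower by edgeR, beside 7.64% of all genes called and 3.96% called higher. The median log2 fold change of the 23 was 0.05. Rora, a receptor that activates Arntl through the ROR element, was at 221, 231 and 271 CPM in WT and at 319, 297, 314 and 528 CPM in Akita (log2 0.59 ± 0.16, edgeR adjusted p = 0.0317). Tipin, a partner of TIMELESS, was also called (0.39 ± 0.12, edgeR adjusted p = 0.0441). Akita replicate 4 was the highest library for Rora, as it was for Cry1, Arntl and Nr1d2, and the lowest for Vip. Its factor for scaling between libraries (TMM) was the lowest of all, 0.803 beside 0.93 to 1.13 in the others, which raises its CPM. The part of this scaling in those values was not tested. The call of Rora was lost without WT 1, WT 2 or Akita 4, with adjusted p from 0.0872 to 0.155. That of Tipin was lost without any 1 of 9 libraries (WT 1, 2 or 3, WT + NACET 2, Akita 1, 2 or 3, Akita + NACET 2 or 4), with adjusted p from 0.0524 to 0.165. With the share outside exons as covariate Rora was at 0.51 (adjusted p = 0.338) and Tipin at 0.29 (adjusted p = 0.405), and without the 4 libraries of lowest share at 0.35 (adjusted p = 0.219) and 0.43 (adjusted p = 0.114).

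Between the NACET-treated groups, 6 of the 23 were higher and 1 lower by edgeR, beside 13.3% of all genes called and 6.01% called higher. The median log2 fold change of the 23 was 0.16. Per1, the third period gene, was at 26, 34.4, 29, 32.1 and 43.3 CPM in Akita + NACET and between 13.3 and 22.5 CPM in WT + NACET, without overlap (log2 0.84 ± 0.16, edgeR adjusted p = 0.00385). Its log2 difference was thus close to those of Per2 and Per3. Tef and Hlf, the PAR bZIP relatives of Dbp, rose by 0.58 ± 0.1 and 0.4 ± 0.1 (edgeR adjusted p = 0.00156 and 0.0123), and Bhlhe41, an E-box repressor, by 0.63 ± 0.13 (adjusted p = 0.00425). Dbp itself was at 0.21 ± 0.11 (adjusted p = 0.184). Tipin fell by 0.45 on the log2 scale (SE 0.09, edgeR adjusted p = 0.00418). Nfil3, which competes with DBP for D-boxes, was at 0.04 ± 0.07 (adjusted p = 0.73), and Ciart, listed as Gm129, at 0.3 ± 0.18 (adjusted p = 0.271). With the share outside exons as covariate none of the named calls held by edgeR. Per1 was then at 0.5 (adjusted p = 0.122), Tef at 0.48 (adjusted p = 0.0596), Hlf at 0.2 (adjusted p = 0.323), Bhlhe41 at 0.33 (adjusted p = 0.159) and Tipin at -0.38 (adjusted p = 0.0869). Without the 4 libraries of lowest share Hlf was at 0.37 (adjusted p = 0.0551) and the other 4 were called.

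In Akita + NACET vs Akita, 2 of these 23 genes were called by edgeR, beside 9.65% of all genes. Tef rose by 0.39 ± 0.11 (edgeR adjusted p = 0.0351) and Tipin fell by 0.32 (adjusted p = 0.0487). The Tef call was lost without any 1 of the 4 Akita libraries, Akita + NACET 1 or Akita + NACET 5 (adjusted p from 0.0534 to 0.0991), and the Tipin call without any 1 of 16 libraries, all but WT + NACET 3 and Akita + NACET 3 (adjusted p from 0.0503 to 0.123). In WT + NACET vs WT, Tipin rose by 0.53 ± 0.11 (edgeR adjusted p = 0.0172) and was the 1 gene of the 23 called, beside 1.48% of all genes. Per1 (-0.55 ± 0.19), Tef (-0.33 ± 0.12) and Hlf (-0.32 ± 0.11) had edgeR adjusted p of 0.127, 0.138 and 0.131 in that comparison. With the share outside exons as covariate neither Tef (0.27, adjusted p = 0.657) nor Tipin (-0.22, adjusted p = 0.662) was called in Akita + NACET vs Akita, nor Tipin in WT + NACET vs WT (0.45, adjusted p = 0.135). In Akita + NACET vs WT edgeR and DESeq2 called 0 of the 23, and edgeR called 0.00618% of all genes. Of the 23, 3 had an unadjusted edgeR p under 0.05. The interaction was called for 7 of the 23, 5 higher and 2 lower, beside 20.3% of all genes called and 10.1% called above 0. The 3 with the smallest p were Tef at 0.72 ± 0.16 (edgeR adjusted p = 0.00666), Hlf at 0.61 ± 0.16 (adjusted p = 0.0119) and Tipin at -0.84 ± 0.15 (adjusted p = 0.00206). With the share outside exons as a covariate, none of these interactions was called. Tef was at 0.5 (adjusted p = 0.555), Hlf at 0.16 (adjusted p = 0.83) and Tipin at -0.67 (adjusted p = 0.346), and Bhlhe41, 0.64 ± 0.2 without the covariate (edgeR adjusted p = 0.0312), was at -0.02. The Bhlhe41 call was also lost without WT 2, WT + NACET 3, Akita 3 or Akita + NACET 5, with adjusted p from 0.051 to 0.0888, and that of Tipin in WT + NACET vs WT without WT 1 or WT 2, at 0.0673 to 0.103. The interaction of Per1 was 0.8 ± 0.26 (edgeR adjusted p = 0.0361), and 0.01 with the covariate (adjusted p = 0.996). The Per1 call was lost without any 1 of 6 libraries, with adjusted p from 0.0535 to 0.152. Those of Ciart (0.21) and Nfil3 (0.05) were not called.

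**Figure D5:**
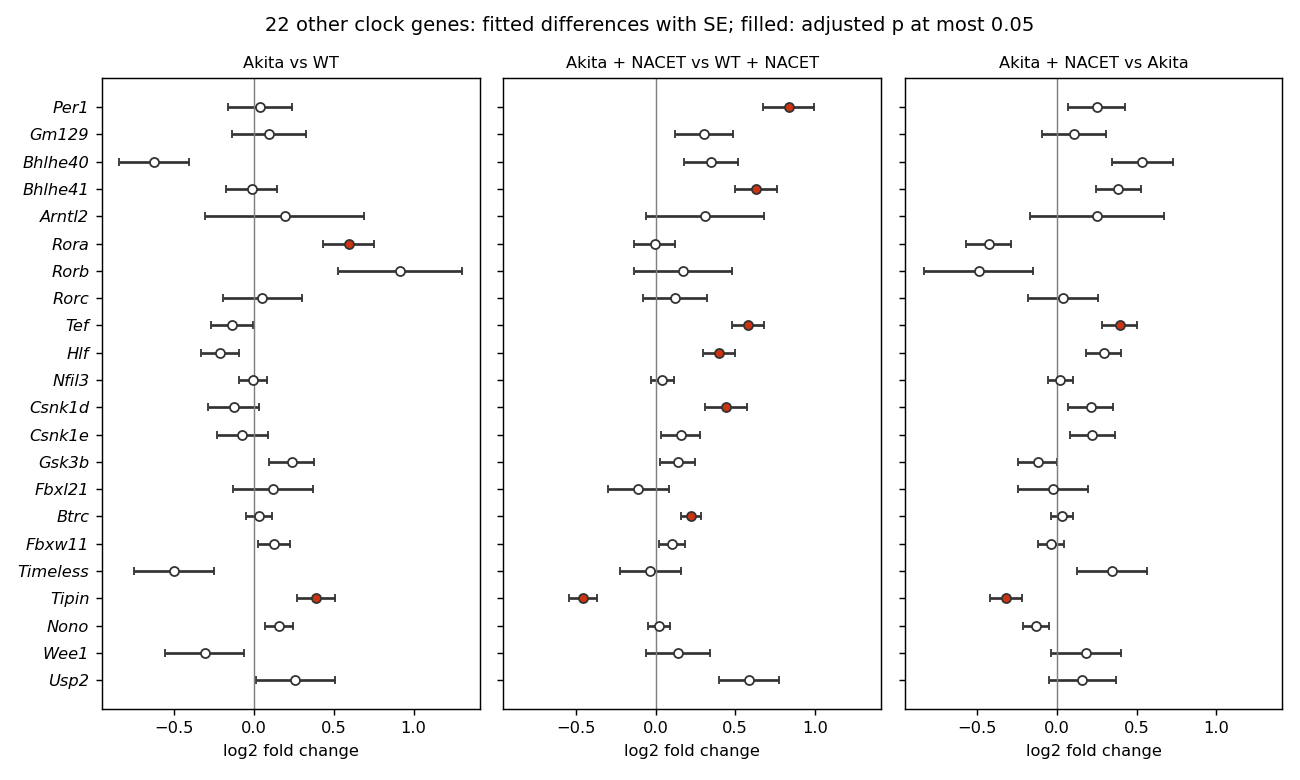
Fitted log2 fold change (horizontal axis, with its SE) of 22 of these other clock genes in 3 comparisons; filled points have an edgeR adjusted p of at most 0.05 over all genes tested. Per1, Tef, Hlf and Bhlhe41 are filled between the NACET-treated groups, at 0.84, 0.58, 0.4 and 0.63, and lie near 0 or below in Akita vs WT.

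Signals that set or leave the retinal clock were read from 3 further lists. Of 12 retinal outputs of the clock, 8 were tested. The melatonin genes Aanat, Mtnr1a and Mtnr1b had at most 10, 9 and 1 reads in any library, and Asmt was not used here. Vip, a neuropeptide of amacrine cells, was the 1 output called by edgeR in Akita vs WT, beside 7.64% of all genes called. It was at 7.47, 6.63 and 6.38 CPM in WT and 3.16, 3.65, 3.52 and 1.99 CPM in Akita (log2 -1.14 ± 0.28, edgeR adjusted p = 0.0235). The call was lost without WT 1, WT 2 or Akita 4, with adjusted p from 0.0686 to 0.117. It was also lost with the share outside exons as covariate (-1.22, adjusted p = 0.278) and without the 4 libraries of lowest share (-1, adjusted p = 0.141). The amacrine markers were at 281 to 366 CPM in WT and 179 to 262 CPM in Akita, and their part in the result was not tested. The interaction of Vip was called at 0.99 ± 0.35 (edgeR adjusted p = 0.0491), beside 20.3% of all genes called. That call was lost with the covariate (1.15, edgeR adjusted p = 0.556) and without any 1 of 14 libraries (adjusted p from 0.055 to 0.116).

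Glucocorticoids can reset clocks in peripheral tissues through Per1 and Per2. Of 10 tested glucocorticoid-responsive genes, edgeR called 2 in Akita + NACET vs WT + NACET, both higher, beside 13.3% of all genes called and 6.01% called higher. They were Fkbp5 (0.79 ± 0.22, edgeR adjusted p = 0.0268) and Errfi1 (0.24 ± 0.07, adjusted p = 0.0269). In Akita + NACET vs Akita edgeR called 1, Mt2 (0.72 ± 0.22, adjusted p = 0.0422), beside 9.65% of all genes called. Leaving out 1 library ended the call of Fkbp5 (WT + NACET 3 or 4, Akita + NACET 1 or 5), of Errfi1 (WT + NACET 5, Akita + NACET 2 or 5) and of Mt2 (Akita 2, 3 or 4, Akita + NACET 2, 4 or 5), with adjusted p of 0.0507 to 0.0723, 0.0592 to 0.0634 and 0.064 to 0.125. With the share outside exons as covariate they were at 0.89, 0.2 and 0.76 (edgeR adjusted p = 0.14, 0.243 and 0.633). Without the 4 libraries of lowest share Fkbp5 was at 0.73 (adjusted p = 0.0995), Mt2 at 0.53 (adjusted p = 0.283) and Errfi1 was called. In Akita vs WT edgeR and DESeq2 called 0, and 0 had an unadjusted p under 0.05.

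Light and neural activity act on the clock through immediate early genes. Of 10 tested, edgeR called 4 higher in Akita + NACET vs WT + NACET, beside 6.01% of all genes called higher, and 10 of 10 values were above 0 with a median log2 fold change of 0.57. The lead was Dusp1, a phosphatase of MAP kinases (0.96 ± 0.15, edgeR adjusted p = 0.000786), which was called in all 27 alternatives. Npas4 (1.16 ± 0.32, adjusted p = 0.0244) lost its call without any 1 of 5 libraries, WT + NACET 3 or 5 or Akita + NACET 2, 4 or 5 (adjusted p from 0.0512 to 0.0629). Nr4a1 (1.32 ± 0.39, adjusted p = 0.0364) lost it without any 1 of 7, WT + NACET 1 to 5 or Akita + NACET 2 or 5 (adjusted p from 0.0509 to 0.0826). With the share outside exons as covariate these 2 were at 0.84 and 0.95 (edgeR adjusted p = 0.321 and 0.382). In WT + NACET vs WT 0 of 10 values were above 0 and the median was -0.72. Dusp1 fell from 68.3, 56 and 50.2 CPM in WT to between 21.2 and 34.6 CPM in WT + NACET (log2 -1.07 ± 0.17, edgeR adjusted p = 0.0023). It was the 1 gene of the list called by edgeR, beside 1.48% of all genes. DESeq2 called 2, and 6 of the 10 had an unadjusted edgeR p under 0.05, all with lower values. The groups did not overlap for 7 of the 10, beside 11.5% of all genes tested. In the same comparison Per1, Per2 and Per3 had log2 values of -0.55, -0.56 and -0.53, none called. In Akita vs WT edgeR and DESeq2 called 0 of the immediate early genes, and 0 had an unadjusted p under 0.05. The interaction was called for Dusp1 (1.14 ± 0.24, edgeR adjusted p = 0.00514) and Npas4 (1.57 ± 0.51, adjusted p = 0.0361), beside 20.3% of all genes. With the covariate neither was called (1.34 and 0.85, edgeR adjusted p = 0.29 and 0.745). The Npas4 call was also lost without any 1 of 9 libraries (adjusted p from 0.051 to 0.0976).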

How the data were processed

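Per the study's methods, the authors made poly(A) libraries (TruSeq RNA v2, single end, NextSeq 500), aligned reads to mm9 with TopHat 2.1.0 and counted them over exons with HTSeq 0.11.2 without strand. The deposited values are raw read counts, 1 file per library. Reads from overlapping genes on opposite strands cannot be told apart. In the counting mode that the study names, intersection-nonempty, reads wholly within exons shared by overlapping genes count for neither gene. Counts and RPKM of such members may therefore be too low.

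Groups were taken from the labels. From the counts, 1 unnamed entry (0.0054%) and 185 ribosomal RNA genes (0.977% of counts) were left out. The quasi-likelihood test of edgeR 4.0.16 in R 4.3.3 was run with TMM scaling, the default filter (minimum count 10, minimum total 15) and all 4 groups in 1 fit. The common dispersion was 0.0347. The SE comes from the F statistic. CPM are counts per 1000000 after TMM; log2 CPM used a prior count of 2. Correlations used 100000 permutations within groups. DESeq2 1.42.0, other scalings and filters, each library left out, the share of reads outside exons as covariate and a replicate block were alternatives; leaving out the 4 libraries with the lowest share was added after seeing the data. No pair of replicates agreed within sampling noise (chi-square per degree of freedom 4.83 to 56.2). Depth was 11495596 to 17814480 counts, so genes with few reads have the larger error.

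The members, gene lists and tests were chosen with earlier results of these data known. All members are named; of other lists, the 3 called genes with the smallest p per comparison, with Per1, Ciart, Tef, Hlf, Nfil3 and Bhlhe41, the 5 genes most and least like Dbp, and genes overlapping a member. Of the other clock genes, 1 is counted but not reported here by name. Gene coordinates are mm9; promoter sequences are RefSeq on GRCm38.p6.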

Additional observations from a re-analysis of the deposited data

Results flagged for a closer look

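The interaction term of the edgeR fit over all genes was called for 3 of the 10 clock genes. That number is near the share of all genes called, 20.3%. The interaction was 1.05 on the log2 scale for Per2 (edgeR adjusted p = 0.0342), 1.27 for Per3 (adjusted p = 0.0145) and 0.51 for Cry2 (adjusted p = 0.00759). For all 3 the values with NACET were lower in WT and higher in Akita. The share of reads outside exons moved the same way, from 16.5% in WT to 12.9% with NACET and from 11.6% in Akita to 16.6% with NACET. With that share as a covariate the interactions were 0.17, 0.04 and 0.32, and without the 4 libraries of lowest share 0.65, 0.88 and 0.45, not called. In 30 sets of 4 to 6 libraries (10 genes, 3 groups), no library passed Dixon's critical value for the gap to its nearest neighbour over the range, Per2 in Akita 3 (5.34 CPM, the other Akita libraries 12.4 to 14.9 CPM) and Per3 in Akita + NACET 5 (118 CPM, the others 66.4 to 83.7 CPM) included.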

How the results depend on the processing

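Alternatives are given as the number of the 10 clock genes called. Leaving out each library in turn gave 0 to 1 in Akita + NACET vs Akita, in Akita vs WT and in WT + NACET vs WT, 0 in Akita + NACET vs WT, 3 to 4 between the NACET-treated groups and 2 to 4 for the interaction. It gave 0 to 1 correlations with Dbp and 2 to 5 with the share outside exons. With that share as a covariate 0 were called for the interaction, in Akita + NACET vs Akita and in Akita vs WT and 2 (Cry1, Cry2) between the NACET-treated groups; Per3 in Akita + NACET vs Akita turned to -0.00067 and the interaction of Bhlhe41 to -0.02. Without the 4 libraries of lowest share 0 were called for the interaction, in Akita + NACET vs Akita and in Akita vs WT, and 4 between the NACET-treated groups, Dbp in place of Per3. The edgeR fit on 2 groups gave 0 in Akita vs WT, and no filter gave 0 in Akita + NACET vs Akita. DESeq2, with all groups or 2, gave 1 (Cry2) in WT + NACET vs WT. With the share removed 1 correlation with Dbp passed (Cry2), and without the 2 farthest libraries 2 with the share. Of 22 same-numbered pairs of libraries, 3 correlated above 0.1 with group means removed, with r from -0.33 to 0.34. Pairs with different numbers were not compared, so this cannot decide whether replicate numbers pair the libraries. The replicate block gave 0 in Akita vs WT and 0 in Akita + NACET vs Akita (Cry1 0.43, adjusted p = 0.0687; Per3 0.72, adjusted p = 0.0511). The cause of these changes was not tested. Of 2808 fold changes, called or not, recomputed with 1 library left out, 133 lost their call and 0 called ones changed sign. Of 1352 under other settings, again called or not, 83 lost their call and 2 called ones changed sign. Only called ones could lose a call, so shares of these totals understate how often calls were lost. Of all genes, 1237 were called in Akita vs WT, but 0 without WT 1 or WT 2, 234 without Akita 4 and 1612 without Akita + NACET 5.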
